A study of Homo sapiens with 2 samples.

Results

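The genes described here are named after proteins of the mitochondrial ribosome. They were chosen by name, as the protein-coding genes of GENCODE release 44 whose symbol is MRPL or MRPS followed by a number, and 78 of the 20046 protein-coding genes met that rule. Each was searched on its own strand for positions bound by RBMS3, an RNA-binding protein, in a list of 27706 sites. Membership rests on the name alone.

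The sites come from CLIP-seq, in which protein and RNA are joined by ultraviolet light in living cells, the protein is recovered, and the attached RNA fragments are sequenced. RBMS3 carrying an N-terminal FLAG tag was expressed by stable lentiviral transduction in MDA-MB-231 cells, a human line grown from a triple-negative breast cancer, and was pulled down through the tag. There was 1 group, FLAG-tagged RBMS3, with 2 biological replicates that the authors pooled before they called sites, so the spread between replicates is not known for any value below. A control library is not analysed here. The title of replicate 2 gives MDA-MB-231, whereas its source and cell line labels read MDA-MB-232. All 6 genes listed as markers of MDA-MB-231 (VIM, CD44, EGFR, CAV1, MSN and AXL) had a 3′UTR site, as did 3 of 6 genes that mark other breast cells (GATA3, KRT8 and EPCAM, but not ESR1, PGR or FOXA1). The strongest sites of the former had a median of 1222.5 deletions on 44433.5 tags, and those of the latter 47 on 744, with EPCAM at 20 of 20 tags. Over all protein-coding genes the share with a 3′UTR site was 31.8%. With only sites counted where under 30% of tags had the deletion, all 6 and 2 of 6 remained, beside 27.6% of all protein-coding genes. The bound RNA was given a poly(A) tail and captured with oligo(dT), and an mRNA's own tail can be captured in the same way, which bears on every statement about transcript ends.

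Mitochondria keep their own ribosome, which translates the few proteins still encoded by mitochondrial DNA, all of them core parts of the respiratory chain and ATP synthase. Its RNAs are made inside the organelle, but every one of its proteins is encoded in the nucleus, translated in the cytosol and imported. Some of these proteins descend from bacterial ribosomal proteins and others are found only in mitochondrial ribosomes. The large subunit joins amino acids and the small subunit reads the mRNA.

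Each site is a single base that was missing from part of the sequenced fragments, called tags after duplicates were removed. The method takes such a deletion as the mark left where protein was crosslinked. A site is given as the number of tags with the deletion out of all tags that cover it, with the percentage and its 95% Wilson interval, which covers counting error only.

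At the strongest site of a gene, meaning the one with the most deletions, the surrounding sequence often held AATAAA or ATTAAA, the hexamers that direct cleavage and polyadenylation of an mRNA. Examples that lay within 100 nt of an annotated transcript end are shown first. Each is a stretch of 29 nt from hg38 on the transcript's strand, written 5′ to 3′ as DNA, with the deleted base at position 15 and the hexamer in capitals.
MRPL49 (chr11:65127316-65127344, plus strand): ttaagctATTAAAatttgtacaatattta
MRPL44 (chr2:223967680-223967708, plus strand): taataccAATAAAgttttttttctccaca
MRPS6 (chr21:34142990-34143018, plus strand): tggacaacttttgctttgagtAATAAAct
MRPS18C (chr4:83461213-83461241, plus strand): cactAATAAActtattttacagtaagtgg
MRPL10 (chr17:47823469-47823497, minus strand): tgggagcactgctttatAATAAAatgaaa
In the next examples the nearest annotated end of a coding transcript downstream was over 100 nt away, and the hexamer was still present. They are shown because it stood so far ahead of the next annotated end.
MRPL14 (chr6:44113692-44113720, minus strand): ctgtgagagAATAAAtgtattcatttatg
MRPS36 (chr5:69229305-69229333, plus strand): gtatATTAAAcacctttAATAAAtattat
MRPS14 (chr1:175014400-175014428, minus strand): catAATAAAtattttctgtgaatgttttt
MRPL3 (chr3:131462387-131462415, minus strand): gtaaatttaacttttATTAAAgttttgtc
MRPL57 (chr13:21177320-21177348, plus strand): cctttggaccagtctttATTAAAacaaac
MRPL50 (chr9:101389979-101390007, minus strand): agattaatttcttttagaATTAAAgtaga
The last examples had neither hexamer within 25 nt of the deletion. The site with the most deletions among the MRPL and MRPS genes is one of them.
MRPL17 (chr11:6681929-6681957, minus strand): tagataaaagtctttatatgaatatatat
MRPS23 (chr17:57839493-57839521, minus strand): catgaagaaacctttataaagattgttca
MRPL45 (chr17:38323170-38323198, plus strand): tttgcattttatggaaaaatataaatcca
In all 3 of these the deleted base sat in a run, of T in MRPL17 and MRPS23 and of A in MRPL45, and within a run the exact base that was skipped cannot be told.

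A 3′UTR site was listed in 43 of the 78 genes (55.1%, 95% Wilson interval 44.1% to 65.7%). Among all protein-coding genes the share was 31.8%. With only sites counted where under 30% of tags had the deletion, it was still 43 of the 78, beside 27.6% of all protein-coding genes. With sites anywhere on the gene's strand counted, 49 of the 78 had one, against 37.6% of all protein-coding genes, and 29 had none. Expression was not analysed here, and the calling of a site depends on how many tags cover it, so a gene without a site may be unbound, weakly expressed or both, and these cannot be told apart.

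The shares were close in the 2 subunits. A 3′UTR site was present in 28 of 51 large-subunit genes (54.9%) and in 15 of 27 small-subunit genes (55.6%). MRPS30 and MRPS18A were counted with the large subunit, to which their proteins belong despite the name. MRPS36 was kept with the small subunit by its name, although the human protein is a component of the oxoglutarate dehydrogenase complex. Genes with a bacterial homologue had a 3′UTR site in 27 of 46 cases (58.7%), and mitochondria-specific genes in 16 of 32 (50%). Split further, the shares were 17 of 30 for large-subunit genes with a bacterial homologue (56.7%), 11 of 21 for mitochondria-specific large-subunit genes (52.4%), 10 of 16 for small-subunit genes with a bacterial homologue (62.5%) and 5 of 11 for mitochondria-specific small-subunit genes (45.5%). With so few genes in a group, these differences were small beside the width of their intervals, and none was tested.

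Along the large subunit, genes with and without a site were mixed. In the stalk, which receives translation factors, MRPL10 (87 of 3468 tags) and MRPL11 (46 of 1769 tags) had a 3′UTR site and MRPL12 did not. Of 6 genes counted here around the exit of the peptide tunnel, 4 had one, namely MRPL22 (109 of 2116 tags), MRPL44, MRPL45 and MRPL47, whereas MRPL23 and MRPL24 did not. In the central protuberance, at the interface to the small subunit, 3 of 8 genes had one. These were MRPL18 (108 of 5936 tags), MRPL40 (108 of 2855 tags) and MRPL58 (93 of 5723 tags), the last of which encodes a peptide-releasing enzyme that is also a structural subunit. The other genes counted there, MRPL27, MRPL38, MRPL46, MRPL48 and MRPL55, had no 3′UTR site. These places were named after the values were seen. The genes given for each need not be all of its members, and the shares depend on that choice.

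**Figure D1:**
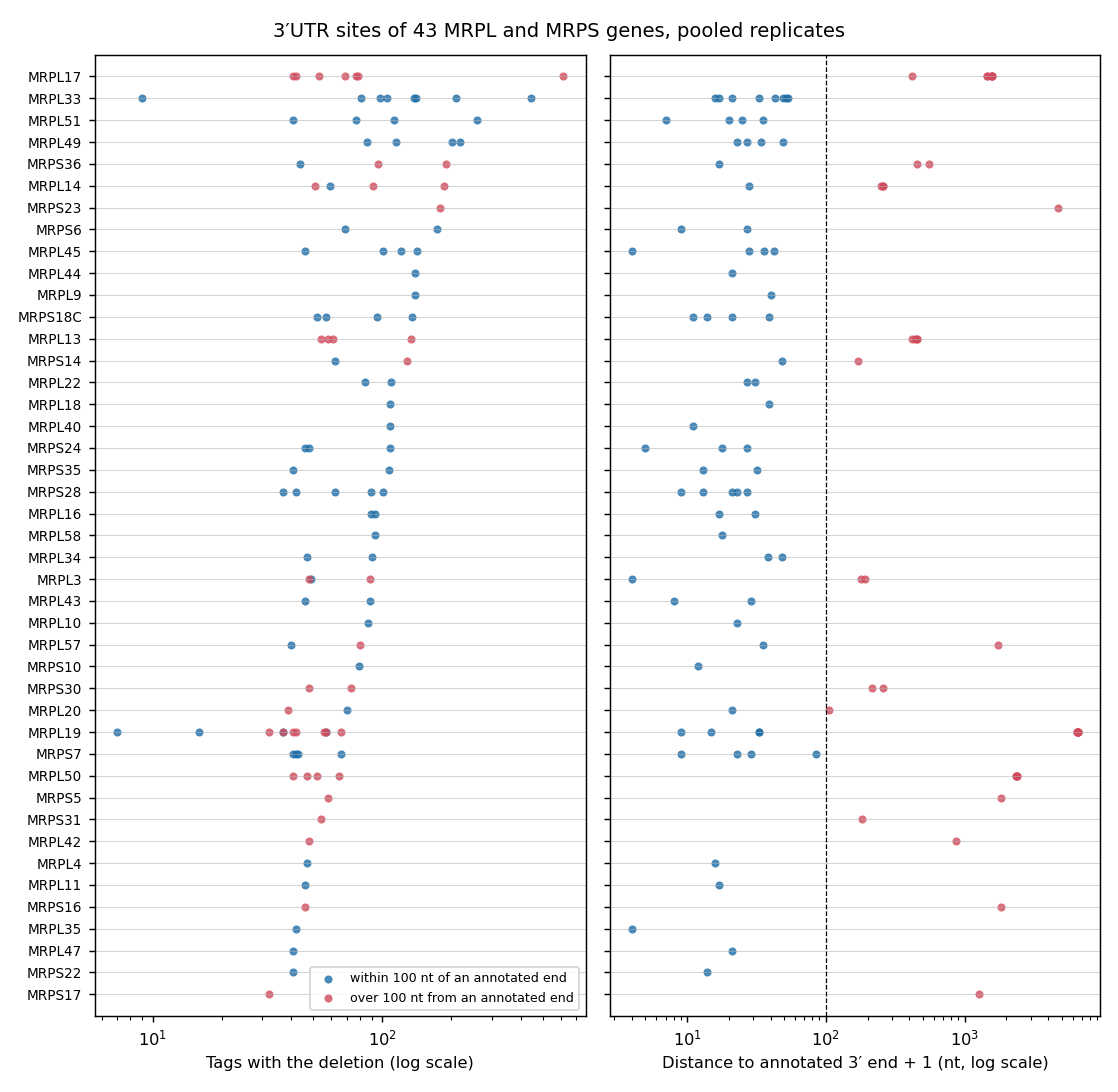
All 110 3′UTR sites of the 43 genes that have one, 1 row per gene, ordered by the deletions at the strongest site. The left panel gives tags with the deletion (log scale) and the right panel the distance to the nearest annotated end of a coding transcript plus 1 nt (log scale), with a dashed line at 100 nt and colours for the 70 sites within and the 40 beyond it. Strongest sites run from 32 deletions in MRPS17 to 614 in MRPL17.

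The strongest sites spanned a wide range of depth. Across the 43 genes the number of deletions ran from 32 to 614 with a median of 93, the number of covering tags ran from 139 to 16703 with a median of 2830, and the percentage of tags with the deletion ran from 1.28% to 23.0% with a median of 3.13%.

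By single sites, MRPL17 ranked first. It encodes the homologue of bacterial L17, and its strongest site had the deletion in 614 of 12179 tags (5.04%, 4.67% to 5.44%). It lay 175 nt after the stop codon and 1558 nt before the nearest end of a coding transcript, but 8 nt past the end of a transcript annotated without a coding sequence. MRPL33, a small protein with a bacterial homologue, had the next strongest site, with 443 of 16703 tags (2.65%, 2.42% to 2.91%), 32 nt from the end. Summed over all 3′UTR sites of the gene, MRPL33 had more deletions than MRPL17, 1223 beside 974. The MRPL33 site was followed 14 nt downstream by AATAAA. The MRPL17 site had neither AATAAA nor ATTAAA in reach, but held other single-base variants of the hexamer such as TATAAA.

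MRPL51 and MRPL49 encode mitochondria-specific proteins of the large subunit, and both were bound close to an annotated end. The deletion was in 258 of 5505 tags in MRPL51 (4.69%, 4.16% to 5.28%), 34 nt from the nearest end. That site was 300 nt from the end of the representative (Ensembl canonical) transcript. In MRPL49 the deletion was in 219 of 7006 tags (3.13%, 2.74% to 3.56%), 33 nt from the nearest end, and ATTAAA began 7 nt upstream of the deleted base. Each of these genes had 4 sites, all in a single stretch near such an end.

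MRPL44 and MRPL45 encode mitochondria-specific proteins near the tunnel exit, and the MRPL45 protein lies against the inner membrane. The MRPL44 site had the deletion in 139 of 1672 tags (8.31%, 7.08% to 9.73%), 20 nt from the end, in a run of 8 T just after AATAAA. The MRPL45 site had it in 142 of 6548 tags (2.17%, 1.84% to 2.55%), 27 nt from the end. MRPL45 had 4 sites within 50 nt of its end, none with AATAAA or ATTAAA in reach, although variants of the hexamer such as TATAAA were present. MRPL9, the homologue of bacterial L9, had a high percentage on fewer tags, with 139 of 808 (17.2%, 14.8% to 20%), 39 nt from the end.

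In the small subunit, MRPS6 and MRPS18C, both with bacterial homologues, were bound close to an annotated end. The MRPS6 site had 173 of 2830 tags (6.11%, 5.29% to 7.06%), 26 nt from the end, with AATAAA starting 7 nt downstream. MRPS18C had its strongest site 10 nt from the nearest end, with 135 of 9921 tags (1.36%, 1.15% to 1.61%). That site was 1071 nt from the end of the representative transcript. MRPS18C had 4 sites in all, between 2 nt and 30 nt after the stop codon. The fewest deletions among strongest sites were in MRPS17 (32 of 139 tags, 23.0%, 16.8% to 30.7%), in MRPS22 (41 of 2172 tags, 1.89%, 1.39% to 2.55%, 13 nt from the nearest end) and in MRPL47 (41 of 1428 tags, 2.87%, 2.12% to 3.87%, 20 nt from the nearest end). From the end of the representative transcript the MRPS22 site was 96 nt away and the MRPL47 site 566 nt. The MRPS17 site also lies in the 3′UTR of an overlapping gene, ENSG00000249773, so its tags cannot be given to MRPS17 alone.

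The other genes with their strongest site within 100 nt of an end fell between these values. They were MRPL4, MRPL10, MRPL11, MRPL16, MRPL18, MRPL20, MRPL22, MRPL34, MRPL35, MRPL40, MRPL43 and MRPL58 of the large subunit, and MRPS7, MRPS10, MRPS24, MRPS28 and MRPS35 of the small subunit. Their strongest sites had from 42 deletions in MRPL35, 3 nt from the nearest end, to 109 in MRPL22, 30 nt from the nearest end. From the end of the representative transcript these 2 sites were 955 nt and 2475 nt away. The strongest sites of MRPL10 and MRPL11 were 211 nt and 779 nt from that end. The MRPS24 site (108 of 3700 tags, 4 nt from the end) is shared with the read-through gene URGCP-MRPS24.

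**Figure D2:**
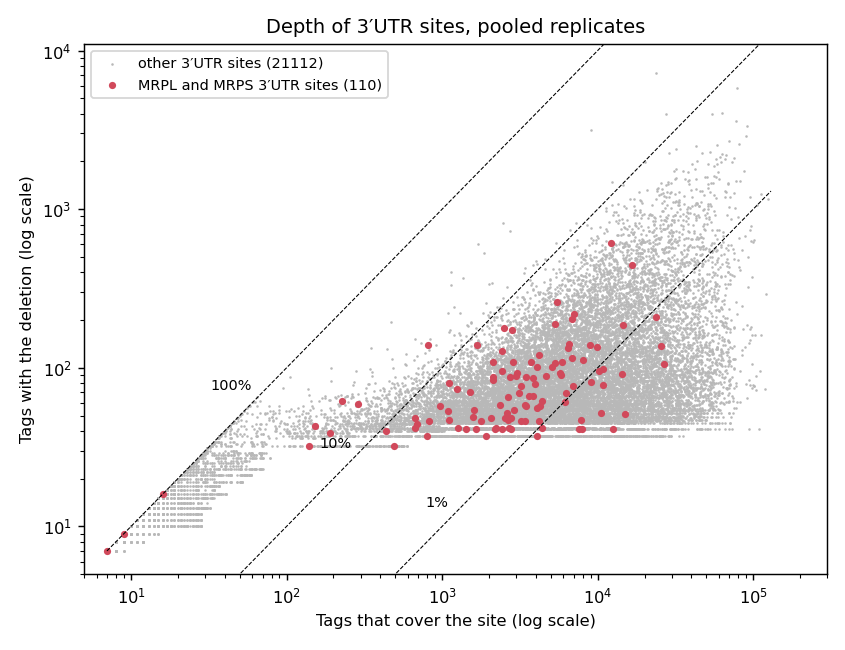
Tags with the deletion against tags that cover the site for every 3′UTR site of a protein-coding gene, both on log scales, with the 110 sites of MRPL and MRPS genes in red, the 21112 others in grey, and dashed lines at 1%, 10% and 100%. The red points lie within the grey ones, mostly between 1% and 10%, and 3 of them sit on the 100% line at 7, 9 and 16 tags.

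In all, the genes held 131 sites on their own strand, of which 110 were in 3′UTRs (84.0%, 76.7% to 89.3%). Over the 25045 sites of all protein-coding genes this share was 84.7%. The 3′UTR sites had the deletion in a median of 2.23% of tags (quartiles 1.44% and 4.51%), beside 1.96% for 3′UTR sites of all genes. The median number of deletions was 65.5, beside 64 for all genes, and the median number of covering tags was 3160.5, beside 4927. Most of the 43 genes had few sites, with 18 genes at a single 3′UTR site and 10 at a pair.

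Sites within 50 nt of each other were joined into clusters, and the 110 sites formed 58. There was a single cluster in 32 genes, and 11 genes had more. MRPL19, the homologue of bacterial L19, had the most, with 11 sites in 4 clusters. Its strongest site (66 of 3642 tags, 1.81%, 1.43% to 2.30%) lay 437 nt after the stop codon and 6484 nt before the nearest end. A further cluster at that distal end peaked at 57 of 963 tags (5.92%, 4.60% to 7.59%), 32 nt from it. The other clusters were the single sites with 16 of 16 and 7 of 7 tags, which lie in 3′UTRs of alternative transcripts and where every covering tag had the deletion.

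MRPL17 had 7 sites in 3 clusters. Beyond the strongest, a second cluster peaked at 77 of 3215 tags (2.40%, 1.92% to 2.98%), 278 nt after the stop codon. The third was a single site of 53 of 1092 tags (4.85%, 3.73% to 6.29%), 1316 nt after the stop codon, with AATAAA starting 5 nt downstream. MRPS36 also had 3 clusters, with 189 of 5337 tags (3.54%, 3.08% to 4.07%) at 94 nt after the stop codon, 96 of 2443 tags (3.93%, 3.23% to 4.78%) at 199 nt, and 44 of 688 tags (6.40%, 4.80% to 8.48%) at 917 nt, the last being 16 nt from the annotated end. Both genes thus had more deletions close to the stop codon than further downstream.

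Several genes with a pair of clusters had one inside the 3′UTR and one at its end. MRPL14, the homologue of bacterial L14, had 186 of 14501 tags (1.28%, 1.11% to 1.48%) at 255 nt from the end and 59 of 288 tags (20.5%, 16.2% to 25.5%) at 27 nt. MRPL57, a mitochondria-specific large-subunit protein, had 80 of 1110 tags (7.21%, 5.83% to 8.88%) at 1750 nt and 40 of 437 tags (9.15%, 6.79% to 12.2%) at 34 nt. MRPS14, the homologue of bacterial S14, had 128 of 2427 tags (5.27%, 4.45% to 6.24%) at 169 nt and 62 of 228 tags (27.2%, 21.8% to 33.3%) at 47 nt. In all 3 the inner site was covered by more tags and carried more deletions. No site under 30% in the list had fewer than 32 deletions, so an outer site on few tags could be listed only at a high percentage, and the percentages are not compared.

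MRPL3, whose bacterial homologue reaches towards the peptidyl transferase centre, had 88 of 2724 tags (3.23%, 2.63% to 3.96%) at 189 nt from the end and 49 of 1581 tags (3.10%, 2.35% to 4.07%) 3 nt before the end of another transcript of the gene. Both MRPL3 clusters held ATTAAA. MRPL20 had 70 of 1507 tags (4.64%, 3.69% to 5.83%) at 20 nt and 39 of 189 tags (20.6%, 15.5% to 27%) at 104 nt. MRPS7 had 66 of 3841 tags (1.72%, 1.35% to 2.18%) at 22 nt and 43 of 153 tags (28.1%, 21.6% to 35.7%) at 84 nt. The second cluster of MRPL33 was 1 site with 9 of 9 tags, inside the coding sequence of the overlapping gene BABAM2. MRPS28 had 5 sites, 101 of 5094 tags (1.98%, 1.63% to 2.40%) at 20 nt in the stronger cluster and 42 of 4412 tags (0.952%, 0.705% to 1.28%) in the weaker, and its weaker cluster overlaps ENSG00000276418.

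The distance from a 3′UTR site to the nearest end of a coding transcript had a median of 34 nt, with quartiles of 20 nt and 433.5 nt. For 3′UTR sites of all genes the median was 38 nt, with quartiles of 18 nt and 341.75 nt. Of the 110 sites, 70 lay within 100 nt of an end (63.6%, 54.3% to 72.0%), beside 65.9% of the 21222 sites of all genes. By gene, 27 had their strongest site within 100 nt of an end, and 33 had at least 1 site there.

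In 16 genes the strongest site was more than 100 nt from the nearest annotated coding end downstream, from 169 nt in MRPS14 to 6484 nt in MRPL19. All of these sites lay between 48 nt and 561 nt after the stop codon, with a median of 156 nt. For all genes this distance is not given here. AATAAA or ATTAAA was present within 25 nt of the deletion in 12 of the 16. For all genes the share is known by cluster only, not by strongest site. Of their clusters over 100 nt from an end, 40.5% held AATAAA or ATTAAA. Without sites at 30% of tags or more this was 63.9%. The hexamer was missing in MRPL17, MRPS17, MRPS23 and MRPS30, of which the first 3 had another single-base variant of it.

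Among those not yet described, MRPS23, a mitochondria-specific small-subunit protein, had 178 of 2488 tags (7.15%, 6.21% to 8.23%) at 276 nt after the stop codon and 4726 nt before the end. MRPL42 had 48 of 666 tags (7.21%, 5.48% to 9.43%) at 561 nt after the stop codon, and MRPL50 had 65 of 2661 tags (2.44%, 1.92% to 3.10%) at 473 nt, in a single cluster of 4 sites around ATTAAA. MRPS30 had 73 of 1250 tags (5.84%, 4.67% to 7.28%) at 57 nt. Apart from the MRPS30 site, which was 255 nt from an end, these sites were far from the next annotated coding end, since MRPL42 was at 870 nt and MRPL50 at 2360 nt. The MRPS17 site, described above, was 48 nt after the stop codon and 1274 nt from an end.

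In 4 of the 16 genes a transcript annotated without a coding sequence ended just downstream. The strongest MRPL13 site (133 of 6416 tags, 2.07%, 1.75% to 2.45%) was 416 nt from a coding end and 5 nt from such an end. The same distances were 1839 nt and 23 nt in MRPS5 (58 of 2360 tags, 2.46%, 1.91% to 3.16%), whose site is also in the 3′UTR of ENSG00000289685. They were 1820 nt and 14 nt in MRPS16 (46 of 820 tags, 5.61%, 4.23% to 7.40%), and 181 nt and 13 nt in MRPS31 (54 of 1602 tags, 3.37%, 2.59% to 4.37%). All 4 held AATAAA within 25 nt. When the ends of transcripts without a coding sequence were counted too, 81 of the 110 sites lay within 100 nt of an end (73.6%), beside 69.3% for all genes, and in 12 of the 16 genes the strongest site was still over 100 nt from the next end downstream.

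These distances look downstream only. In 5 of the 16 genes the strongest site lay within 100 nt past an annotated end, at 8 nt in MRPL17, 35 nt in MRPL3, 54 nt in MRPS17, 65 nt in MRPS31 and 88 nt in MRPS36. The ends in MRPL3 and MRPS17 were of coding transcripts and the others of transcripts without a coding sequence. Other sites of the strongest MRPL17 cluster, with 41 of 12585, 78 of 10893 and 69 of 6290 tags, lay 2 nt, 7 nt and 13 nt before the same end. With both sides counted, 8 of the 16 genes had their strongest site over 100 nt from any annotated end, namely MRPL14, MRPL19, MRPL42, MRPL50, MRPL57, MRPS14, MRPS23 and MRPS30. Ends upstream of a site were not counted over all genes, so whether these numbers are usual cannot be told.

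**Figure D3:**
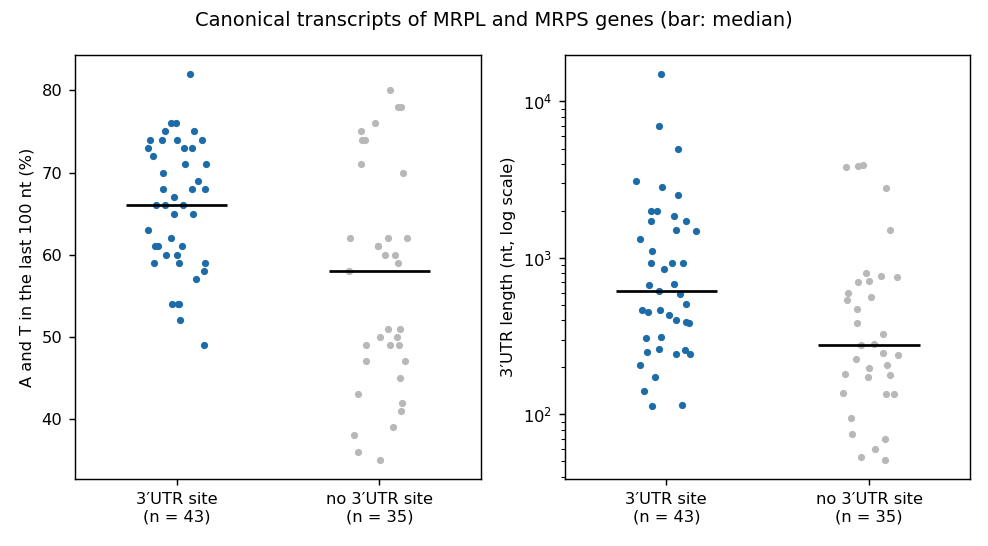
Percentage of A and T in the last 100 nt of the representative transcript (left) and length of its 3′UTR in nt (right, log scale), for genes with and without a 3′UTR site, 1 point per gene and a bar at the median. Median A and T are 66% for the 43 genes with a site and 58% for the 35 without, median lengths are 616 nt and 277 nt, and the ranges overlap in both panels.

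Windows of 25 nt on each side of the strongest site of a cluster, 51 nt in all, were searched on the transcript strand only. AATAAA or ATTAAA was present in 42 of the 58 clusters (72.4%, 59.8% to 82.2%), beside 60.6% of the 9975 3′UTR clusters of all genes. AATAAA was in 33 (56.9%, beside 47.4%), and ATTAAA without AATAAA in 9 (15.5%, beside 13.2%). A further 11 held only one of 10 other single-base variants (19.0%, beside 16.1%), and 5 held none of the 12 hexamers (8.62%, beside 23.3%). Sites at 30% of tags or more made up 2.73% of the 3′UTR sites of the MRPL and MRPS genes and 12.9% of those of all genes. Without them the share with AATAAA or ATTAAA was 76.4% (42 of 55, 63.7% to 85.6%), beside 75.6% of 7314 clusters of all genes, and the share with none of the hexamers was 7.27%, beside 11.3%. The hexamer was thus common around these sites, as around 3′UTR sites of all genes.

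Among the 38 clusters within 100 nt of an end, 28 held AATAAA or ATTAAA (73.7%, 58.0% to 85.0%), beside 76.4% for all genes. Among the 20 further away it was 14 (70.0%, 48.1% to 85.5%), beside 40.5% for all genes (39.1% to 42.0%). Without sites at 30% of tags or more these shares were 80% (28 of 35, 64.1% to 90.0%), beside 80.8% for all genes, and 70% (14 of 20), beside 63.9% for all genes. The share of distant clusters with the hexamer in all genes thus lay within the interval of the MRPL and MRPS genes once such sites were left out.

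The deletion lay to either side of the hexamer. In the 42 clusters the nearest AATAAA or ATTAAA started upstream of the deleted base in 21, downstream in 20 (47.6%) and at it in 1. Measured from the deletion to the first base of the hexamer, the quartiles were -9, -0.5 and 10.25 nt, negative values being upstream. For the 6045 such clusters of all genes they were -11, -1 and 6 nt. The deleted base fell within the hexamer in 6 of the 42 (14.3%), beside 11% over all genes, and after its last base in 16 (38.1%), beside 42.7%.

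**Figure D4:**
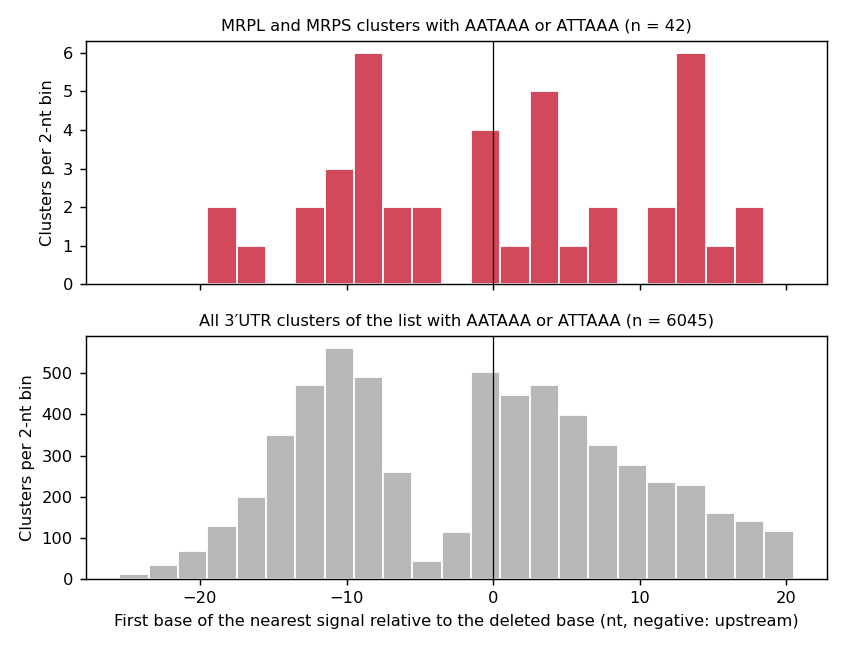
Number of clusters by the position of the first base of the nearest AATAAA or ATTAAA relative to the deleted base (nt, bins of 2 nt, negative is upstream), for the 42 clusters of MRPL and MRPS genes that hold one (top) and the 6045 of all protein-coding genes (bottom). In both panels the hexamer starts on both sides of the deletion, downstream of it in 47.6% and 46.4% of clusters.

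The AUA motif, a 7-nt pattern named in the study with AUA in its middle, was matched on the transcript strand as A, G or T, then A or T, then ATA, then A or T, then A. It was present in 36 of the 58 windows (62.1%, 49.2% to 73.4%), beside 47.8% for all genes. AATAAA can be part of a match, and with such matches left out the motif remained in 14 windows (24.1%, 15% to 36.5%), beside 14.6%. Without sites at 30% of tags or more the motif was in 65.5% of windows, beside 57.6% for all genes. The share of windows with a match free of AATAAA was not counted with those sites left out. Both motif shares rest on the same 58 windows as the hexamer shares.

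The deleted base was T, which is U in the RNA, in 46 of the 58 clusters (79.3%, 67.2% to 87.7%), beside 74.4% for all genes, and in 78.2%, beside 77.3%, without sites at 30% of tags or more. It was A in 9 (15.5%), C in 2 (3.45%) and G in 1 (1.72%). The T was part of a run of at least 3 in 40 clusters, and of exactly 3 in 29, as in MRPL17, MRPS23, MRPS6 and MRPL51. A single T was deleted in 2 clusters.

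MRPS15 encodes the homologue of bacterial S15 and had a site in its coding sequence instead of its 3′UTR. The deletion, at position 36455791 of chromosome 1 on the minus strand, was in 79 of 3172 tags (2.49%, 2.00% to 3.09%). It fell in an AATAAA that covers bases 36455787 to 36455792, and the TAA stop codon at 36455788 to 36455790 is made of 3 bases of this hexamer. The sequence around the deleted base, with the hexamer in capitals, is shown because it joins stop codon and poly(A) signal.
MRPS15 (chr1:36455777-36455805, minus strand): ctcaaagacagccAATAAAttctgttcaa
The coding transcript ends 73 nt downstream, and 3 transcripts annotated without a coding sequence end at 17 nt to 19 nt. The site thus resembled the 3′UTR sites described above in depth, hexamer and distance. A hexamer over a stop codon was also found in MRPS18C, where AATAAA covers bases 83461193 to 83461198 of chromosome 4 and the stop codon bases 83461195 to 83461197. The nearest MRPS18C deletion, at 83461199, was in 57 of 4271 tags (1.33%, 1.03% to 1.73%).
MRPS18C (chr4:83461185-83461213, plus strand): atatcgggAATAAAttctatcacgttacc

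The 21 sites outside 3′UTRs were mostly thin. In 16 of them at least 30% of tags had the deletion, as also in 3 of the 110 3′UTR sites (2.73%, beside 12.9% over all genes). Of these 19 sites, 17 had under 50 tags. Of the 5 others, 1 was the MRPS15 site and 4 were listed in an intron of MRPS6.

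SLC5A3, the gene of a myo-inositol transporter, lies inside this MRPS6 intron on the same strand, and 6 of the 7 MRPS6 intron sites are in its 3′UTR. The strongest had 167 of 3079 tags (5.42%, 4.68% to 6.28%). The other sites under 30% had 65 of 4043 tags (1.61%, 1.26% to 2.04%), 58 of 2675 tags (2.17%, 1.68% to 2.79%) and 56 of 3003 tags (1.86%, 1.44% to 2.41%). These tags cannot be assigned to the MRPS6 precursor rather than to SLC5A3. The sites at 24 of 24 and 10 of 13 tags were in the same 3′UTR, and 1 of 49 of 50 tags was in an SLC5A3 intron.

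Coding-sequence sites were found in MRPL1 (9 of 9 tags), in MRPL38 (8 of 8 tags, also in the 3′UTR of another gene) and in MRPL47 (10 of 17 tags). Intron sites were found in MRPL3 (19 of 19 tags), MRPS9 (18 of 18 tags), MRPS25 (18 of 32 tags), MRPS27 (13 of 20 tags) and MRPS14, where 40 of 40 tags lay in an annotated Y RNA exon. MRPL19 had 3 intron sites, with 14 of 18, 11 of 22 and 7 of 7 tags. MRPS30 had 1 intron site with 52 of 126 tags (41.3%, 33.1% to 50%) and 1 in a noncoding exon with 13 of 13 tags. At these sites so large a share of a small number of tags carried the deletion that their intervals reach from 30.7% in MRPL19 to 100%. MRPL1, MRPL38, MRPS9, MRPS15, MRPS25 and MRPS27 had no other site.

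The 35 genes without a 3′UTR site were MRPL1, MRPL2, MRPL12, MRPL15, MRPL21, MRPL23, MRPL24, MRPL27, MRPL28, MRPL30, MRPL32, MRPL36, MRPL37, MRPL38, MRPL39, MRPL41, MRPL46, MRPL48, MRPL52, MRPL53, MRPL54 and MRPL55, and MRPS2, MRPS9, MRPS11, MRPS12, MRPS15, MRPS18A, MRPS18B, MRPS21, MRPS25, MRPS26, MRPS27, MRPS33 and MRPS34. MRPL12 forms the mobile stalk, MRPS12 is part of the decoding centre, and MRPL2 and MRPL27 have bacterial homologues at the peptidyl transferase centre, so core parts of the ribosome were among those without a site.

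A poly(A) signal at the end of the representative transcript did not separate the genes with a site from those without. This end is often not the one near the site. The strongest site was over 100 nt from it in the 16 genes described above as distant. The same held for MRPL10, MRPL11, MRPL22, MRPL35, MRPL47, MRPL51 and MRPS18C. AATAAA or ATTAAA stood in the last 50 nt of the representative transcript in 35 of the 43 genes with a 3′UTR site (81.4%, 67.4% to 90.3%) and in 28 of the 35 without (80.0%, 64.1% to 90.0%). Over the 19550 protein-coding genes with such a 3′UTR the share was 79.2%, with 83.8% in those with a site and 77.0% in those without.

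Genes with a site had longer 3′UTRs and more A and T in the last 100 nt of the transcript, with overlap. In MRPL21, MRPL24, MRPL39, MRPL41, MRPL55 and MRPS15 the 3′UTR was under 100 nt, so this stretch takes in coding sequence. None of these genes had a 3′UTR site. The median length was 616 nt (113 nt to 14993 nt) with a site and 277 nt (51 nt to 3929 nt) without, beside 1677 nt and 821 nt over all genes. The last 100 nt of the transcript held a median of 66% A and T (49% to 82%) with a site and 58% (35% to 80%) without, beside 69% and 63% over all genes. At the low end, 10 genes without a site were below the lowest value among genes with one, including MRPL12 at 35%, MRPL23 at 36% and MRPS34 at 47%. At the high end, 9 genes without a site were at or above the median of those with one, among them MRPL30 (75%, a 3′UTR of 3856 nt), MRPS25 (76%, 3929 nt) and MRPS33 (80%, 3820 nt), each with AATAAA at the end. A longer 3′UTR offers more positions for a site, and its part in these counts was not tested.

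On the opposite strand, 8 of the 78 genes had sites, 28 in all, and 5 had one within the span of a 3′UTR. Such sites can belong to overlapping genes on that strand. The share over all protein-coding genes was not counted, so whether these numbers are usual cannot be told. Of 79 pseudogenes with MRPL or MRPS names, 1 had a site, MRPS31P4, with 32 of 265 tags. Reads shared between MRPS31 and this near copy may have been split by the mapping.

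Other genes of mitochondrial translation had 3′UTR sites in shares from 23.5% to 58.8%, beside 31.8% of all protein-coding genes. Of 5 further subunits of the mitochondrial ribosome with other names, DAP3, a GTP-binding protein of the small subunit (111 of 4299 tags), and CHCHD1 (70 of 2373 tags) had one, and PTCD3, AURKAIP1 and GADD45GIP1 did not. Of 17 translation factors and partners, 10 had one (58.8%, 36% to 78.4%), such as the mRNA-binding partners LRPPRC (179 of 4118 tags) and SLIRP (80 of 13176 tags), the elongation factor TUFM (152 of 5330 tags) and the recycling factor GFM2 (111 of 7644 tags). In 3 of the 10 the only sites had the deletion in at least 30% of few tags, TSFM (13 of 13), MTRF1 (13 of 29) and MRRF (20 of 30). Without them 7 of 17 genes remained (41.2%, 21.6% to 64.0%), beside 27.6% of all protein-coding genes.

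Of 27 assembly factors, 11 had one (40.7%, 24.5% to 59.3%), with C1QBP, a matrix protein that supports ribosome assembly, at 992 of 17412 tags (5.70%), above every MRPL and MRPS gene in deletions. The helicase DHX30 (161 of 4931 tags) and MPV17L2 (142 of 3390 tags) followed. Of 17 mitochondrial aminoacyl-tRNA synthetases, which load tRNAs with amino acids, 4 had one (23.5%, 9.56% to 47.3%). The most deletions among them were in IARS2 (376 of 27057 tags), followed by LARS2 (68 of 2317 tags). With only sites under 30% counted 2 of 17 remained (11.8%), beside 27.6% of all protein-coding genes.

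Genes named as cytosolic ribosomal proteins had a 3′UTR site in 59 of 87 cases (67.8%, 57.4% to 76.7%) and genes named as nuclear-encoded respiratory chain in 57 of 90 (63.3%, 53.0% to 72.6%). With only sites under 30% counted these were 59 and 54 genes. Their strongest sites were also deeper, with a median of 243 deletions on 14894 tags for cytosolic ribosomal proteins and of 174 on 6527 tags for the respiratory chain, beside 93 on 2830 for the MRPL and MRPS genes. Their 3′UTRs were shorter, with medians of 174 nt and 190.5 nt beside 464.5 nt. The intervals of the 3 shares overlap, and expression, which also sets the number of tags, was not analysed here. Over all protein-coding genes the share was 31.8%, and 27.6% with only sites under 30% counted. Both lists were drawn by name, so not every gene in them need encode a subunit or be expressed in these cells. For example, RPS4Y1, RPL3L, COX8C and the read-through gene ATP5MF-PTCD1 had no 3′UTR site, whereas RPL7L1, RPS27L and ATP5IF1 did. The shares without such genes were not counted.

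**Figure D5:**
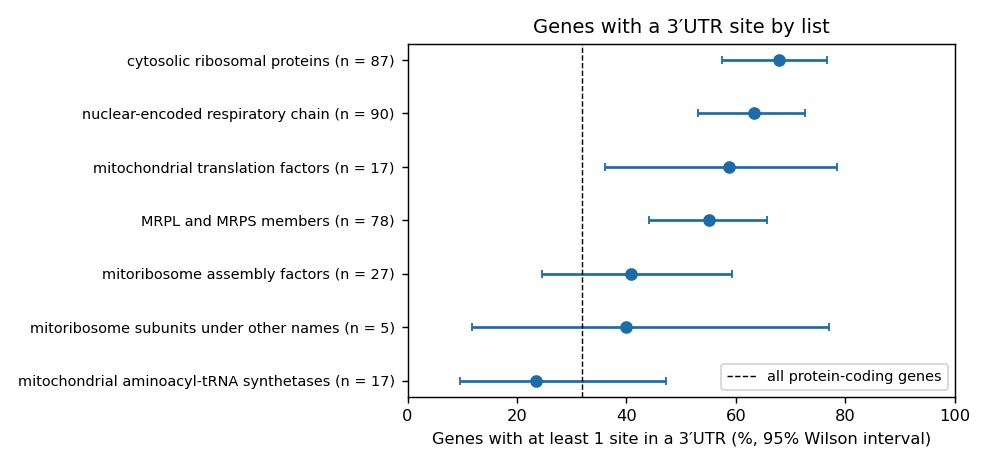
Percentage of genes with at least 1 3′UTR site in each list of mitochondrial or ribosomal genes, with 95% Wilson intervals and the number of genes, and a dashed line at 31.8%, the share over all protein-coding genes. The MRPL and MRPS genes are at 55.1%, between the cytosolic ribosomal proteins at 67.8% and the aminoacyl-tRNA synthetases at 23.5%.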

How the data were processed

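The deposited values are counts, taken from 1 list that the authors called on both replicates together. Per the study's methods, molecular identifiers were appended to the reads, and the CLIP Tool Kit (version not given in the sources used here) was used to align to hg38, to reduce reads to unique tags and to call deletions. The list was limited to a false discovery rate under 10% and a fold change above 10, whose reference is not given in the sources used here. For each site the deposited counts are the tags with the deletion and, in a text column, all covering tags. They are not normalized, the depth of each library is not analysed here, and a site can rest on 1 replicate. Fewest deletions at a site under 30% were 32, on at least 110 tags, so shallow transcripts can only show sites with a high percentage.

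Intervals of 21 nt were read at the central base. Sites were placed on GENCODE release 44, 3′UTRs first and strand-matched, on all transcripts. The representative transcript is the Ensembl canonical one. Distances were taken to the nearest downstream end of a coding transcript of the gene, and ends upstream of a site were looked at after its values were seen. Sites within 50 nt formed clusters, and windows had 25 nt on each side. Shares have 95% Wilson intervals. With 1 group, no comparison between conditions exists and no test was run. Sites of a gene share sequence, so intervals over sites and clusters are too narrow.

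Named in full were the 12 genes with the most deletions, those with several clusters, with the strongest site over 100 nt from an end, with sites outside 3′UTRs or at 30% of tags or more, and the 3 with the fewest deletions. The genes and lists were chosen with earlier results of these data known. Functions were tested on simulated data. Tables were handled with pandas 2.3.3 and numpy 2.4.6 under Python 3.11.15, intervals computed with scipy 1.17.1 and plots drawn with matplotlib 3.10.9.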

Additional observations from a re-analysis of the deposited data

How the results depend on the processing

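Of 79 recomputed values, 54 stayed within the 95% interval of the reported value, or within 1.5 times a count, and 25 moved further. A minimum of 10% of tags with the deletion changed most, since it left 9 3′UTR sites in 8 genes. The 3′UTR share was then 36%, the share within 100 nt of an end 77.8%, that with AATAAA or ATTAAA 11.1%, that with the AUA motif 33.3%, deleted T 100% and the median percentage 27.2%. The 3′UTR share was 92.2% at 20 or more deletions, 92.3% at 50 or more, 95.5% below 30% of tags, and 75.3% with a single site per cluster, which also raised the median percentage to 3.66%. The opposite strand gave 5 genes and a 3′UTR share of 67.9%. With 1 representative transcript per gene, 45.8% of sites lay within 100 nt of an end and the median distance was 178 nt. With the ends of all transcripts, chosen after seeing the data, these were 73.6% and 26.5 nt. With 10 nt on each side, AATAAA or ATTAAA was in 37.9% of windows and the AUA motif in 27.6%. AATAAA alone was in 56.9% and any of 12 hexamers in 91.4%. The shorter AUA core was in 81.0%, and matches that do not contain AATAAA in 24.1%. Deleted T made up 40% of the 5 clusters whose deleted base differs from both neighbours. Leaving out MRPS36 or transcripts marked for nonsense-mediated decay, both chosen after seeing the data, moved nothing beyond these limits. No paired analysis was possible because both replicates are of 1 group and were pooled, and for the same reason no replicate could be left out.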
